A study of Homo sapiens with 45 samples.

Results

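The genes that make cholesterol and fatty acids were followed through 45 transcriptomes of HCT116-VR cells. The members are 32 named genes of the mevalonate pathway, the sterol steps that follow it, their control by SREBP, sterol transport, fatty acid synthesis and the making of glycerolipids. They were listed by name, with earlier results of these data known, and 31 of the 32 were matched by Ensembl identifier among the 15698 genes of the deposited table. No identifier in the table was matched to ACACA, which was not analysed here.

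HCT116-VR is a vorinostat-resistant derivative of HCT116, a human colorectal cancer cell line. All cells were of this 1 line and were collected 48 h after transfection, either with lipid alone (mock) or with an siRNA pool at 40 nM against BEGAIN, CCNK, CDK10, DPPA5, EIF3L, GLI1, JAK2, NFYA, POLR2D, PSMD13, RGS18, SAP130, TGM5 or TOX4. Each of the 15 conditions had 3 libraries, and no drug was named for them in the sample labels. RNA carrying poly-A was sequenced, and between 7569592 and 21149597 reads per library (median 11551126) fell on the genes of the table.

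The deposited columns carry library numbers, and these are paired with conditions by the sample list of the study. The siRNA target genes went against that list. NFYA, a DNA-contacting subunit of the transcription factor NF-Y, was lowest in libraries 11, 22 and 26 (log2 values 4.02, 4.04 and 4.69). The libraries listed under the siRNA against NFYA instead held 5.67 (library 9), 5.35 (library 25) and 5.33 (library 43). The median of all 45 libraries was 5.33. Over the 11 target genes in the table, the 3 lowest libraries of each make up 33 places, of which 3 were held by a library listed under the siRNA against that gene. Libraries are therefore named by number, and no library was given another condition. All p-values by listed names measure differences between names of the list, and the spread over libraries is described without names.

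Cells make cholesterol from acetyl-CoA by way of mevalonate, squalene and lanosterol, and make fatty acids from the same acetyl-CoA. Most of these enzymes are switched on by the sterol regulatory element binding proteins, which are encoded by SREBF1 and SREBF2. The precursors are held in the endoplasmic reticulum by SCAP and the INSIG proteins when sterols are plentiful. When sterols fall, SCAP carries the precursors to the Golgi, where they are cleaved, and the freed factor enters the nucleus. There it binds sterol regulatory elements, usually beside NF-Y, which binds the CCAAT box.

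Promoter letters are shown for 6 of the members with the patterns described further on, because both motifs are read by factors named above. The windows came from RefSeq on GRCh38.p14 and ran from 250 bases before to 50 bases after each start, and 27 of the 31 measured members had one. In the lines that follow only the 250 bases before the start are given, 5′ to 3′ on the strand of the gene, and capitals mark each CCAAT (or ATTGG on the other strand) and the 1 match to TCACNCCAC, the sterol regulatory element that was searched.
SREBF2 (chr22:41832855-41833104, plus strand): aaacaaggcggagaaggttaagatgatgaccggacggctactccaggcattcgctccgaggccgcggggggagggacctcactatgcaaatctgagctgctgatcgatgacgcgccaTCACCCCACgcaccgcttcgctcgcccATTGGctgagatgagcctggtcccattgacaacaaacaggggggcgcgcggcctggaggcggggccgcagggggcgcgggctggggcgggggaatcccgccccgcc
HMGCS1 (chr5:43313413-43313662, minus strand): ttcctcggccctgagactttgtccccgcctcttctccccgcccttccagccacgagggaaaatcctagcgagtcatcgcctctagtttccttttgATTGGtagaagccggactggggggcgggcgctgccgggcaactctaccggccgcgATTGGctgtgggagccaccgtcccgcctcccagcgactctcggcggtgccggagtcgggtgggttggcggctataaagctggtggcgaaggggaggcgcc
FDPS (chr1:155308616-155308865, plus strand): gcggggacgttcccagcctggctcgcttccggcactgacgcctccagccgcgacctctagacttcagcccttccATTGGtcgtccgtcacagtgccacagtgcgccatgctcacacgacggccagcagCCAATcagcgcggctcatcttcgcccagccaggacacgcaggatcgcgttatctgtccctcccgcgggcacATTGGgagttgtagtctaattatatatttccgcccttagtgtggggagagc
MVK (chr12:109573544-109573793, plus strand): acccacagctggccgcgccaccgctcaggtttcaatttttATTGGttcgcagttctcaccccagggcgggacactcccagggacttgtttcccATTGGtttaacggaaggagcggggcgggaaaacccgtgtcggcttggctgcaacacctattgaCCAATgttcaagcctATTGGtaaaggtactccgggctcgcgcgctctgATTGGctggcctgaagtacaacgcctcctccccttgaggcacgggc
MVD (chr16:88663092-88663341, minus strand): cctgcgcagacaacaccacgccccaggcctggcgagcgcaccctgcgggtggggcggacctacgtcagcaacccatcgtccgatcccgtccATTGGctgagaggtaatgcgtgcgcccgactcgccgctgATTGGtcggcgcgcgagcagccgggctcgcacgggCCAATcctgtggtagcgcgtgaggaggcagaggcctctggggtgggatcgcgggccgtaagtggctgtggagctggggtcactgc
DHCR7 (chr11:71448394-71448643, minus strand): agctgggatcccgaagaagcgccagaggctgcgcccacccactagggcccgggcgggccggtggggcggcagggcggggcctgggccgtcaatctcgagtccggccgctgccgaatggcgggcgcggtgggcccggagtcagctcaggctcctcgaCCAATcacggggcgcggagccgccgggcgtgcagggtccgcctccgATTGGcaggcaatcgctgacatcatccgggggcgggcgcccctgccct
At least 1 CCAAT box stood in a window of 20 of the 27 members (74.1%), beside 43.3% of the 10347 genes of the deposited table that had a window and 39.7% of all 27305 genes with one. TCACNCCAC (GTGGNGTGA on the other strand) was found in 1 of the 27 members, SREBF2, and in 1.37% of the 10347 genes. No other form of the element was searched, so its absence from the other windows was not shown. Both motifs were searched on both strands, and they share no bases in the SREBF2 window. Among the promoters shown, MVK held 5 CCAAT boxes, FDPS and MVD 3 each, and HMGCS1 and DHCR7 2 each. These are matches of letters within short windows and say nothing of binding. FADS2 held its only CCAAT box in the bases after the start.

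Every member was expressed in every library. The lowest count of any member in any library was 32 reads, for CYP51A1 in library 27, which had the fewest reads of the 45. Log2 values are log2 of CPM (reads of a gene scaled to a common library size) as normalised by the authors. Compared per kilobase of merged exons, the fatty acid enzymes FASN (median log2 7.58 per kb), SCD (7.13) and ACLY (6.86) had the highest levels of the 31. They were followed by FDFT1 (5.66), EBP (5.44), SQLE (5.37) and the control gene SREBF2 (5.27). LPIN1 (0.46), MVK (0.86), HSD17B7 (1.02) and TM7SF2 (1.24) had the lowest levels per kb. The ranges of neighbours in this order overlapped for all 31 genes. FASN ran from 7.13 to 7.89 per kb and SCD from 6.37 to 7.85, for example.

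**Figure D1:**
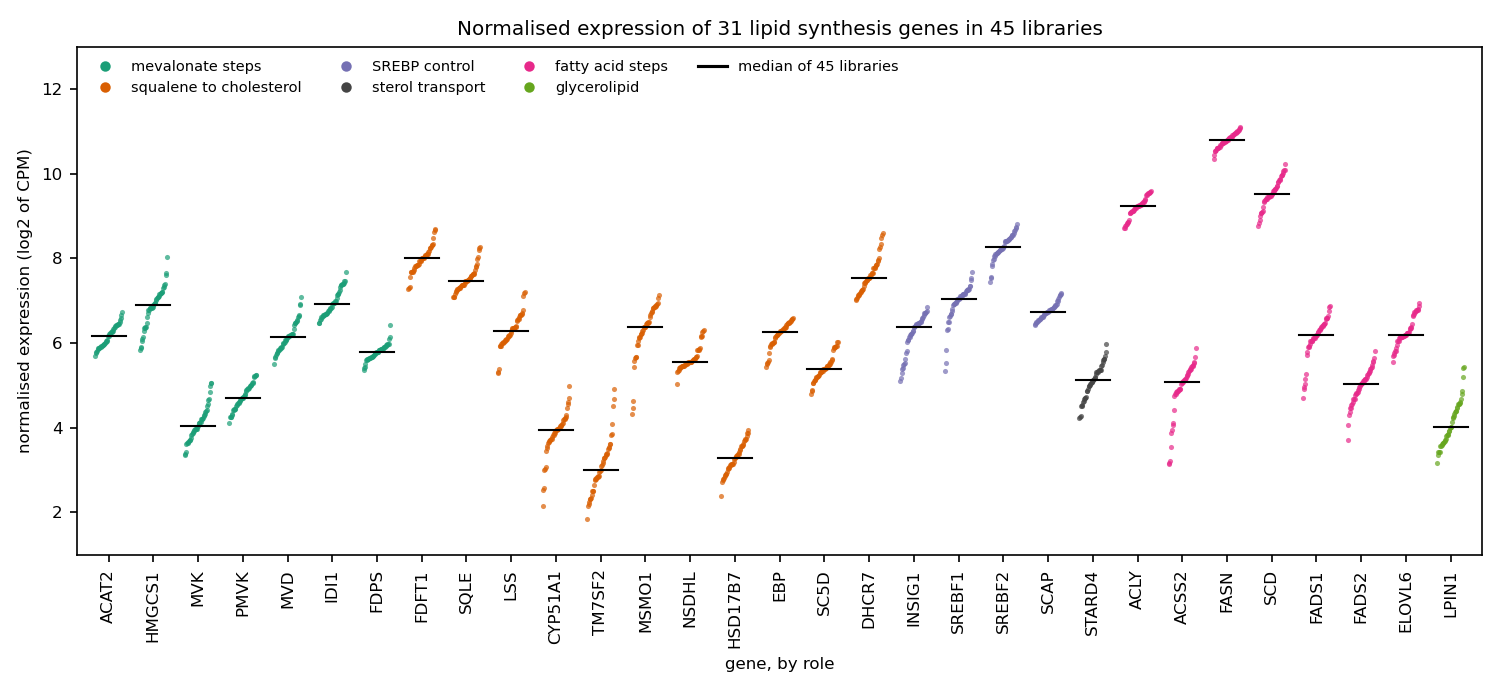
Normalised expression of the 31 genes, with log2 of CPM on the vertical axis and genes by role on the horizontal axis. Each point is 1 of 45 libraries, sorted within a gene, and the black bar is the median. Steep tails at the lower end are seen for CYP51A1, MSMO1, SREBF1, ACSS2 and FADS1, and at the upper end for HMGCS1, TM7SF2 and LPIN1.

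The spread of the members was like that of other genes. Their s.d. over the 45 libraries ran from 0.18 (FASN) to 0.67 (ACSS2 and TM7SF2) on the log2 scale, with a median of 0.36. The median s.d. was 0.40 over the 15695 genes tested and 0.33 over the 10160 of them with a median log2 value of at least 3, which are closer to the members in level. The highest library exceeded the lowest by 1.68 times for SCAP and by 8.36 times for TM7SF2, with a median of 2.96 times over the 31 genes.

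Libraries resembled each other in threes. A tree built on 2187 variable genes, from which all members, related lipid genes and siRNA targets had been left out, held 15 sets of exactly 3 libraries that together took in all 45. Within a set a member differed between its highest and lowest library by a median of 0.06 (ACLY) to 0.53 (TM7SF2) on the log2 scale. The range over all 45 libraries was more than 2 times the largest difference within any set for 31 of 31 members. The share of all genes with such a range was not computed, so this count is not read as a trait of the members. The 3 highest libraries formed 1 such set for 12 of the 31 members and the 3 lowest for 14. Over all genes tested the same held for 32.9% (highest) and 34.7% (lowest), so these counts are near the background. What the libraries of a set share is not given by their listed names. The paper reported that the triplicates of each siRNA and of mock grouped together in its own clustering of these libraries. It also reported efficient knockdown of the siRNA targets whose expression was detected. For 10 of the 11 measured siRNA targets the 3 lowest libraries formed 1 set, beside 34.7% of all genes tested. Whether the sets found here are those triplicates was not tested.

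**Figure D2:**
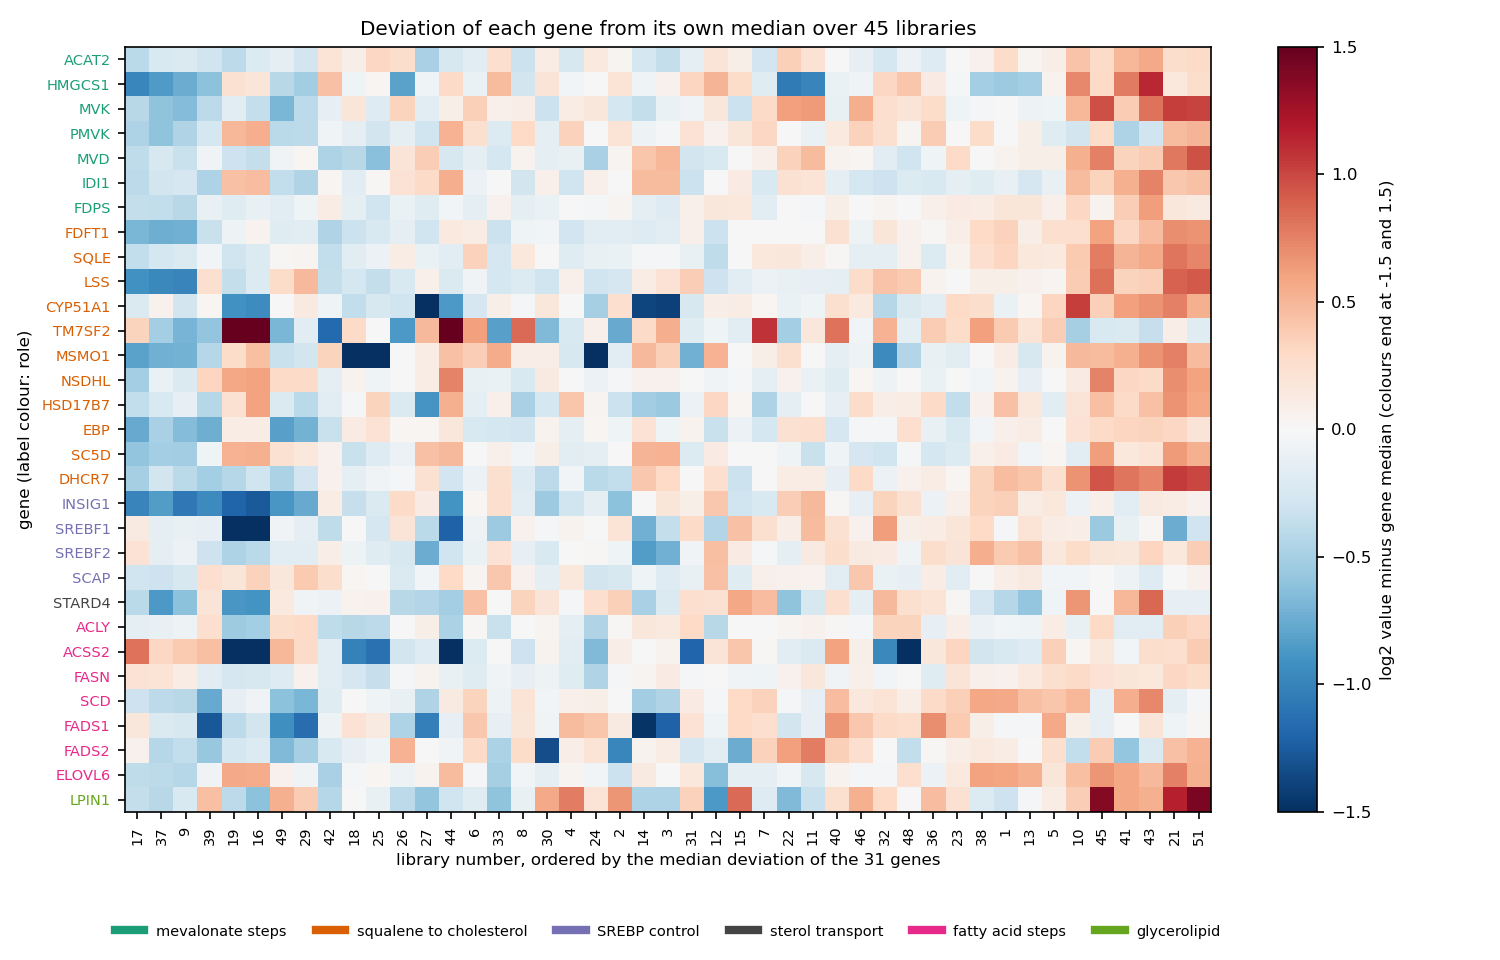
Log2 value minus the median of the gene over 45 libraries, in colour, with genes as rows (label colour gives the role) and libraries as columns, ordered by the median deviation of the 31 genes. Sterol genes are mostly blue in libraries 17, 37 and 9 at the left and mostly red in libraries 10, 45, 41, 43, 21 and 51 at the right.

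The early steps of the pathway turn acetyl-CoA into farnesyl diphosphate. HMGCS1, which makes HMG-CoA, lies on GRCh37 at chr5:43287572-43313614 and had a lowest log2 value of 5.83 (library 22), a median of 6.89 and a highest of 8.03 (library 43), a 4.59-fold span. Libraries 43, 41 and 10 were highest (8.03, 7.67 and 7.61), above the next at 7.39. Libraries 22, 11, 17 and 37 were lowest (5.83, 5.90, 5.91 and 6.04), followed by 26 (6.09). Libraries 11, 22 and 26 were the lowest 3 in NFYA, and 17 and 37 were not among them. ACAT2, the thiolase that joins acetyl-CoA units, ran from 5.69 (library 27) over a median of 6.17 to 6.75 (library 43). Its highest libraries were again 43, 41 and 10 (6.75, 6.67 and 6.60). FDPS, which makes farnesyl diphosphate, was among the steadiest members with a s.d. of 0.20, a median of 5.79, a lowest value of 5.37 (library 9) and a highest of 6.42 (library 43). In FDPS the libraries 43, 41 and 10 stood at the top (6.42, 6.16 and 6.10) and 9, 37 and 17 at the bottom (5.37, 5.42 and 5.44). Exons of ACAT2, IDI1 and FDPS overlap other genes over 17.2%, 15.0% and 18.6% of their length. FDPS also has 3 annotated pseudogenes and IDI1 has 1, so that reads of these genes may be split or shared.

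The kinases and the decarboxylase had another order. MVK, mevalonate kinase, ran from 3.35 (library 49) over 4.03 to 5.06 (library 21), on 107 to 420 reads. MVD, the decarboxylase that makes isopentenyl diphosphate, ran from 5.51 (library 25) over 6.13 to 7.09 (library 51). Both genes had libraries 21, 45 and 51 at the top, with 5.06, 4.99 and 5.05 for MVK and 6.92, 6.89 and 7.09 for MVD, and the next library stood at 4.85 and 6.66. PMVK, phosphomevalonate kinase, ran from 4.10 (library 37) over 4.71 to 5.26 (library 16). IDI1, the isomerase of isopentenyl diphosphate, ran from 6.47 (library 39) over 6.93 to 7.68 (library 43).

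Squalene synthase and squalene epoxidase open the sterol branch. FDFT1, squalene synthase, had its lowest values in libraries 37, 9 and 17 (7.27, 7.29 and 7.32, with the next at 7.56), a median of 8.01 and its highest in libraries 21, 51 and 45 (8.70, 8.68 and 8.61, with the next at 8.47). Each end was 1 set of 3 libraries, as held for 32.9% (highest) and 34.7% (lowest) of all genes tested. SQLE, squalene epoxidase, was highest in the same 3 libraries (8.28 in 21, 8.24 in 45 and 8.21 in 51) and lowest in library 12 (7.09), with a median of 7.47. LSS, which closes the ring to lanosterol, repeated both ends of FDFT1. It held 5.30, 5.33 and 5.39 in libraries 9, 37 and 17, far below the next at 5.93, and 7.22, 7.18 and 7.12 in libraries 51, 21 and 45, above the next at 6.78. Its median was 6.29. Libraries 9, 17 and 37 held 12139465, 13323691 and 15014035 reads and libraries 21, 45 and 51 held 11538197, 14126288 and 11365811. The part of depth in these levels was not tested.

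Between lanosterol and cholesterol, CYP51A1 and MSMO1 had the largest spans of log2 values after TM7SF2. CYP51A1, the lanosterol demethylase, had a median of 3.94 and held 2.15, 2.53 and 2.56 in libraries 27, 3 and 14, below all other libraries. Libraries 16, 19 and 44, the lowest in SREBF1, came next and lay 0.94, 0.91 and 0.86 below the median. The top value was 4.98 in library 10, so that the span was 7.12-fold. It has 2 annotated pseudogenes and rests on 32 to 332 reads. MSMO1, the methyl sterol oxidase, was highest in library 21 (7.14), with a median of 6.38. Its level was 4.32, 4.48 and 4.62 in libraries 24, 18 and 25, and the next were 5.43 in library 32 and 5.58 in library 17. SC5D, the desaturase, ran from 4.80 (library 17) over 5.39 to 6.02 (library 21), with 17, 9 and 37 lowest and 21, 45 and 51 highest.

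TM7SF2, a sterol reductase, went its own way. Libraries 44, 16 and 19 were highest (4.91, 4.68 and 4.51, with the next at 4.09), the median was 3.01 and the lowest value 1.85 in library 42. Its reads ran from 40 to 346. Its correlation with the median deviation of the other members was -0.10, whereas that of FDFT1 was 0.85. Libraries of a set differed by up to 1.10 in TM7SF2, the most of any member.

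The remaining sterol genes had a s.d. of 0.28 (NSDHL), 0.31 (EBP), 0.36 (HSD17B7) and 0.41 (DHCR7), beside a median of 0.36 over the members. NSDHL, a sterol dehydrogenase, ran from 5.04 (library 17) over 5.55 to 6.30 (library 45), and EBP, the sterol isomerase, from 5.44 (library 49) over 6.26 to 6.59 (library 43). HSD17B7, a keto reductase with 1 annotated pseudogene, ran from 2.39 (library 27) over 3.28 to 3.96 (library 21) on 38 to 199 reads. DHCR7, which makes cholesterol itself in the last step, lies on GRCh37 at chr11:71139239-71163914. It held 8.59, 8.55 and 8.49 in libraries 21, 51 and 45, above the next at 8.35, and was lowest in library 39 (7.03), with a median of 7.54.

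SREBF1 and SREBF2, which encode the factors, were each lowest in 3 libraries in which some enzymes were lowest and others were above their own median. In libraries 16, 19 and 44 (SREBF1 lowest) the median deviation of the 18 mevalonate and sterol genes was 0.08, 0.02 and 0.16. That of the 7 fatty acid genes was -0.24, -0.27 and -0.11. In libraries 3, 14 and 27 (SREBF2 lowest) it was 0.02, 0.03 and -0.02 for the sterol genes and 0.05, 0.04 and -0.01 for the fatty acid genes. SREBF1 (GRCh37 chr17:17713713-17740316) had a median of 7.05 and fell off steeply in libraries 16, 19 and 44, which held 5.33, 5.54 and 5.84 with the next at 6.31. Its highest value was 7.68 in library 32. SREBF2 (GRCh37 chr22:42229109-42303310) had a median of 8.28, with 7.44, 7.54 and 7.56 in libraries 14, 27 and 3 and the next at 7.82. INSIG1, a retention protein that is itself a target of SREBP, had a median of 6.37 and was lowest in libraries 16, 19 and 9 (5.11, 5.17 and 5.30). The highest were 11, 12 and 22 (6.86, 6.77 and 6.74). SCAP, the escort of the precursors, was the steadiest of the 4 by fold, running from 6.43 (library 37) over 6.74 to 7.18 (library 12). The next lowest in SREBF2 were libraries 19, 16, 39 and 44 (7.82, 7.88, 7.97 and 7.99), of which 16, 19 and 44 were lowest in SREBF1, and the r of both genes over the 45 libraries was 0.44.

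Sterol transport and fatty acid genes added further patterns. STARD4, which carries sterols between membranes, ran from 4.23 (library 16) over 5.12 to 5.98 (library 43). ACSS2, which makes acetyl-CoA from acetate, had a median of 5.07 and held 3.15, 3.18 and 3.22 in libraries 19, 16 and 44, the libraries in which SREBF1 was lowest. The next was 3.54 in library 48, and the highest was 5.88 in library 17. ACLY, which makes cytosolic acetyl-CoA from citrate, was also lowest in these 3 (8.71, 8.73 and 8.76), but by a small margin, since the next library held 8.79 and the median was 9.24. FASN, fatty acid synthase, ran only from 10.35 (library 24) over 10.80 to 11.11 (library 21), on 13486 to 36788 reads, and had the lowest s.d. of all members (0.18).

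Of the desaturases, SCD and FADS1 were low in the same 6 libraries, 3, 14, 27, 29, 39 and 49. SCD, the stearoyl-CoA desaturase with 1 annotated pseudogene, was lowest in libraries 39, 29 and 49 (8.76, 8.83 and 8.90, with the next at 9.00). It had a median of 9.52 and was highest in library 43 (10.24). FADS1, the delta-5 desaturase, ran from 4.71 (library 14) over 6.18 to 6.88 (library 36), with 14, 39, 3, 29, 27 and 49 lowest. FADS2, the delta-6 desaturase, held 3.71, 4.06 and 4.30 in libraries 30, 2 and 15, had a median of 5.04 and was highest in libraries 11 and 22 (5.80 and 5.66). These neighbouring genes overlap on opposite strands at chromosome 11, and the share of exon length that lies in other genes is 4.79% for FADS1 and 5.11% for FADS2. ELOVL6, the elongase, was lowest in libraries 12, 33 and 42 (5.56, 5.70 and 5.71), had a median of 6.20 and reached 6.96 in library 21. LPIN1, a phosphatidate phosphatase, held 5.44, 5.40 and 5.19 in libraries 51, 45 and 21, with the next at 4.87, a median of 4.02 and a lowest value of 3.16 (library 12).

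Sterol enzymes had higher correlations with each other than fatty acid enzymes had. The correlations that follow are descriptions over 45 libraries, which are not independent points because they fall into sets of 3. Over the 153 pairs of the 18 mevalonate and sterol genes the median Pearson's r was 0.40, and 49 pairs (32.0%) had an r of at least 0.5. Over the 21 pairs of the 7 fatty acid genes the median was 0.13 and 2 pairs reached 0.5. Between both groups it was 0.22 over 126 pairs. These group medians were not recomputed with any set of 3 libraries left out. For all 465 pairs of members the median was 0.28, with 17.8% at 0.5 or more, beside a median of -0.00016 and 3.33% over the pairs of all 15695 genes tested.

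The closest pair was FDFT1 with SQLE (r = 0.83, and 0.73 to 0.87 when each set of 3 libraries was left out in turn). FDFT1 with ELOVL6 (0.79) and MVD with SQLE (0.78) came next, followed by FDFT1 with LSS (0.78), NSDHL with SC5D (0.77) and CYP51A1 with SREBF2 (0.77). The last of these fell to 0.59 without libraries 3, 14 and 27. SCD went with FADS1 (0.76). At the other end SREBF1 ran against SC5D (-0.68), NSDHL (-0.66) and IDI1 (-0.52). Without libraries 16, 19 and 44 these values were -0.62, -0.46 and -0.39. The r of TM7SF2 with ACSS2 was -0.50 over all libraries and -0.10 without those 3.

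Of the control genes, INSIG1 had a median r of 0.29 with the mevalonate and sterol genes and 0.28 with the fatty acid genes. SREBF2 had 0.14 and 0.31. SREBF1 had -0.09 and 0.32, and 11 of its 18 pairs with mevalonate and sterol genes were below 0. SCAP had 0.09 and -0.17. These medians concern messenger levels and not the cleaved factors.

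**Figure D3:**
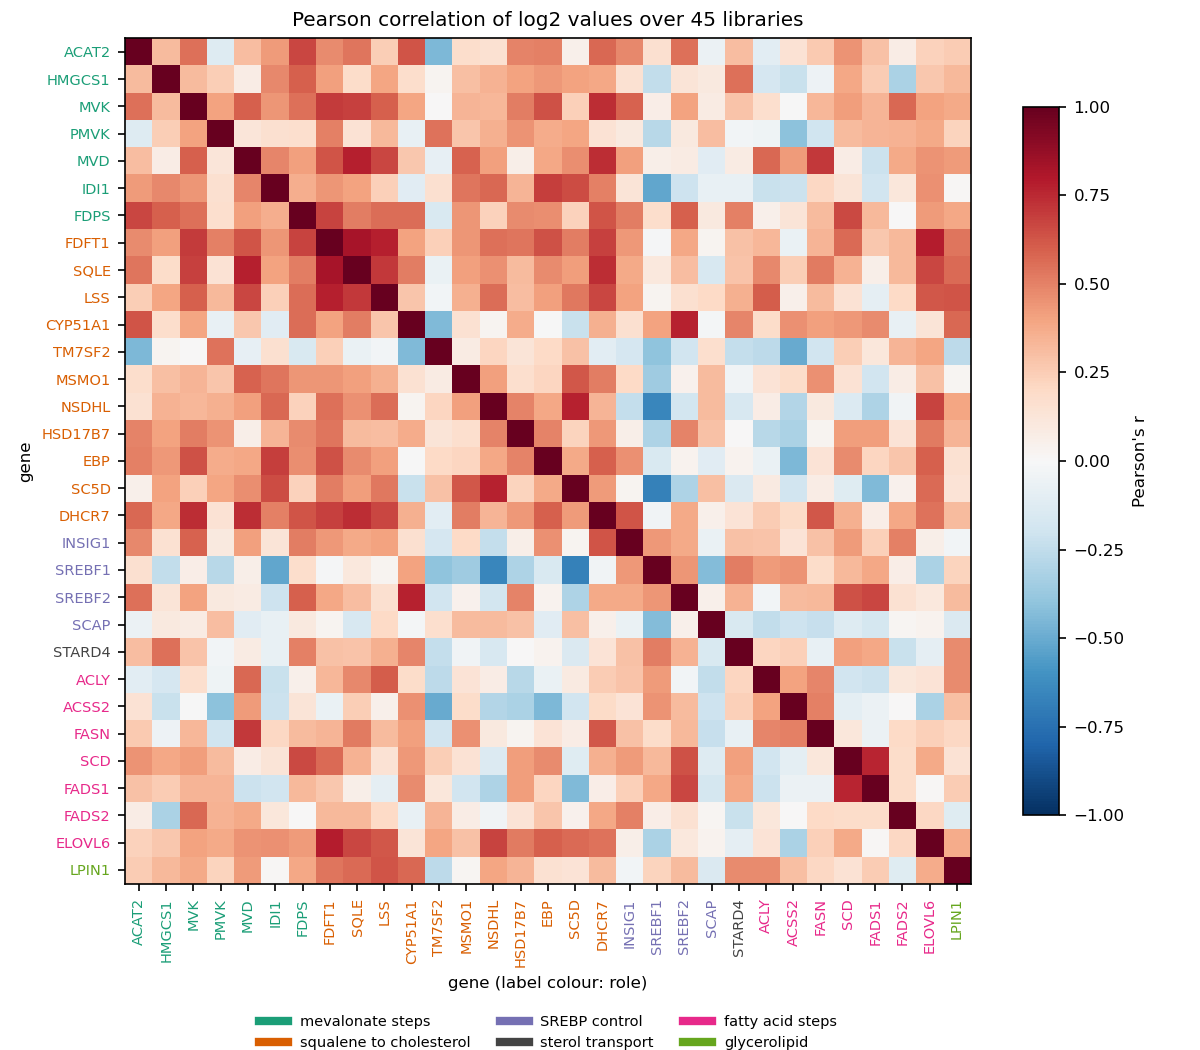
Pearson's r of the log2 values of each pair of the 31 genes over 45 libraries, in colour, with genes in the order of their roles on both axes. The block of MVK, MVD, FDFT1, SQLE, LSS and DHCR7 is red throughout, SREBF1 is blue against IDI1, NSDHL and SC5D, and TM7SF2 is pale or blue along most of its row.

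By library, the median deviation of the 31 members ran from -0.38 in library 17 to 0.44 in library 51. The lowest 3 were 17, 37 and 9 (-0.38, -0.37 and -0.37), which form 1 set, and 29 of 31 members were below their own median in library 9. The highest 3 were 51, 21 and 43 (0.44, 0.40 and 0.38), and 27 of 31 members were above their own median in libraries 51 and 21. In the sample list libraries 9, 17 and 37 appear as siNFYA replicate 1, siBEGAIN replicate 2 and siCCNK replicate 3, and libraries 21, 45 and 51 as siDPPA5 replicate 2, siPSMD13 replicate 3 and siTOX4 replicate 3. The median deviation over all genes tested was 0.00 in libraries 9 and 37 and -0.02 in library 51.

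Sterol and fatty acid genes parted in some libraries. In library 17 the 18 mevalonate and sterol genes lay at a median of -0.44, with 17 of 18 below their own median, while the 7 fatty acid genes lay at 0.07. Libraries 9 and 37 held -0.43 and -0.43 for the sterol genes and -0.24 and -0.21 for the fatty acid genes. Library 21 held 0.69 with 18 of 18 sterol genes above their median, and 0.31 for the fatty acid genes. In library 41 the sterol genes lay at 0.35 with 16 of 18 above, and the fatty acid genes at 0.00. Libraries 16 and 19 held 0.08 and 0.02 for sterol genes and -0.24 and -0.27 for fatty acid genes. In libraries 11, 22 and 26, where NFYA was lowest, the median of the 31 members was 0.01, 0.01 and -0.09. NFYA was highest in libraries 21, 45 and 51 (6.38, 6.27 and 6.24), where the median of the members was 0.40, 0.30 and 0.44. NFYB held 4.97, 5.20 and 4.94 in these libraries, below its median of 5.85. The part of the NF-Y subunits in these levels was not tested.

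**Figure D4:**
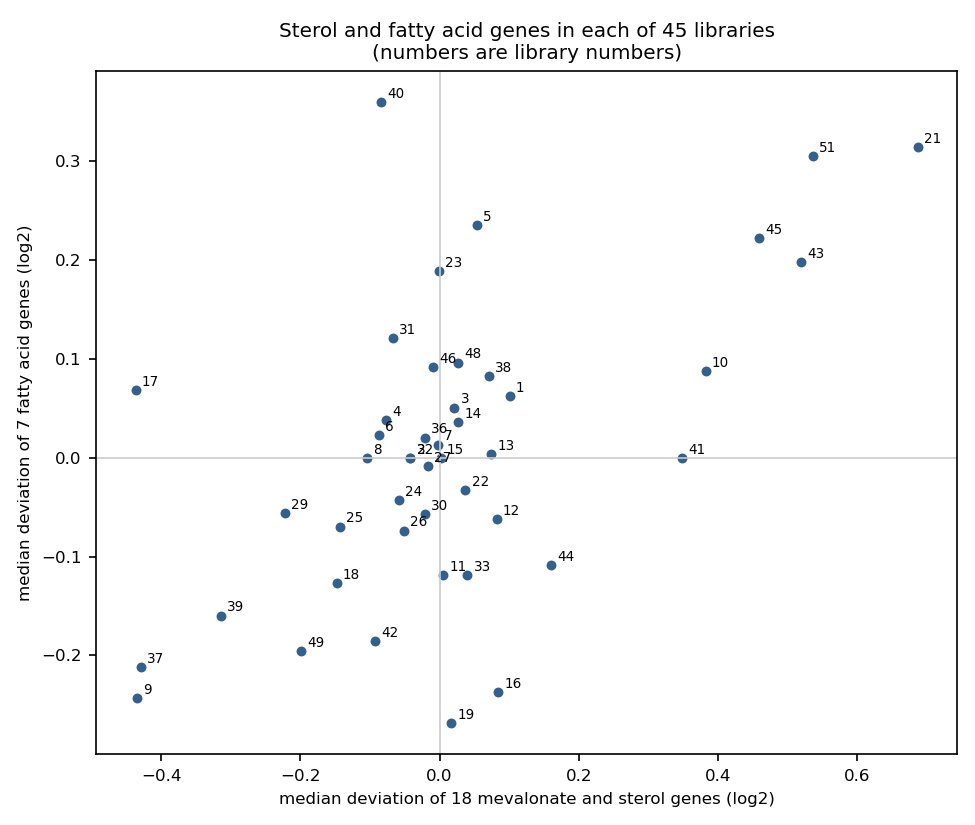
Median deviation from the gene median (log2) of the 18 mevalonate and sterol genes on the horizontal axis and of the 7 fatty acid genes on the vertical axis, with 1 point and number for each of 45 libraries. Libraries 9 and 37 sit at the lower left and 21, 51, 45 and 43 at the upper right, while library 17 is low on the horizontal axis alone and libraries 16 and 19 are low on the vertical axis alone.

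Outside the members, 5 genes followed the median deviation of the 31 members most closely among 13855 genes at a median log2 value of 0 or more. They were RCN2 (r = 0.74, Spearman's rho 0.54), ERG28 (0.74 and 0.59), PPP1R35 (0.73 and 0.67), ETHE1 (0.70 and 0.68) and SLC50A1 (0.70 and 0.60). ERG28 encodes a scaffold for sterol enzymes and belongs to a list of 18 related sterol and fatty acid genes, whose median r was 0.15. INSIG2, the other INSIG gene beside INSIG1, had 0.52 and was lowest in libraries 44, 19 and 16. The median over all genes tested was -0.0079. NFYA had 0.25, NFYB -0.12 and NFYC -0.23. Of the LXR list, 4 of 5 genes were measured, with a median r of -0.018.

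Of 5 epithelial markers 4 were measured, and VIL1 was not matched. Their lowest log2 values in any library were 9.53 (KRT8), 8.34 (KRT18), 8.18 (EPCAM) and 6.05 (CDH1). KRT8 and KRT18 have 12 and 11 annotated pseudogenes. Of 5 markers of other cell types only COL1A1 was matched, with a median of 3.64, and its r with the members was -0.01. Its part in the results was not tested.

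When libraries were compared by their listed names, no member was called. Each listed siRNA was set against listed mock in 1 limma fit of all 45 libraries, and 0 of 434 tests of members were called, which took an adjusted p under 0.05 (limma, Benjamini-Hochberg over all genes) and a change of 1 or more in log2 either way. The background was 0 of 219730 tests, that is 0%. At an unadjusted p under 0.05 there were 26 of 434 tests of members, beside 4.73% of all tests. The lowest adjusted p of a member was 0.50 in limma. The member with the lowest unadjusted p was LPIN1 in the listed siTOX4 comparison, with a log2 fold change of 1.36 (SE 0.42) and an adjusted p of 0.56 in limma. Under the listed siNFYA name HMGCS1 differed from listed mock by 0.10 (SE 0.42) and SREBF2 by -0.05 (SE 0.26). The libraries listed as mock (1, 16 and 33) each fell in a different set of 3 libraries. Since the siRNA targets also went against the list, the counts of 0, the p-values and the fold changes say nothing of what the siRNAs did.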

How the data were processed

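RNA of 45 libraries of HCT116-VR cells was selected for poly-A and sequenced from 1 end with a kit that does not mark strand, so overlapping genes on opposite strands cannot be told apart. The authors used CASAVA 1.8.2 and TopHat 1.4.1, aligned to GRCh37, counted reads per gene of Ensembl release 67 with HTSeq, and deposited log2 values of CPM, normalised with limma and voom. Versions of HTSeq and limma were not given in the sources used here. Whole reads were recovered from these log2 values by removing the 0.5 reads added to each count, and 100% of values came within 0.001 of a whole number. A count of 0 allows up to 3 reads, which is a log2 value of at most -1.07 in any library. Such limits cover counting error only.

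Library numbers were paired with samples by the sample list of the study's supplement, as names only. The members and the gene lists were chosen with earlier results of these data known. Named genes are all members by role, siRNA targets, NF-Y subunits and the 5 other genes most like the median deviation of the members. INSIG2 and ERG28 belong to a list of related genes. Listed siRNAs were compared with listed mock by lmFit and eBayes with a trend (limma 3.58.1, R 4.3.3) over the 15695 genes that reached a log2 value of -1 in 3 or more libraries. The p-values measure only the spread between these libraries. For each gene the mean of each listed name was subtracted. The 315 correlations of what remained, between libraries with the same listed replicate number, had a median of -0.00035 (-0.57 to 0.83). The numbers come from the same list as the conditions, so whether the biological experiments pair the libraries was not tested. Sets of 3 came from average linkage on 1 minus the uncentred Pearson correlation of genes with a s.d. of at least 0.75. The fit, the sets and the correlations were tested on simulated data. Levels per kb use merged exons of GENCODE release 44 on GRCh37. Python 3.11.15, numpy 2.4.6, pandas 2.3.3, scipy 1.17.1 and matplotlib 3.10.9 were used.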

Additional observations from a re-analysis of the deposited data

How the results depend on the processing

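By listed names, 0 members were called in the replicate block fit, as without the block, and 0 with no filter, with libraries centred on their median, after quantile normalisation, with voom weights, with the adjusted p alone and without each of 45 libraries in turn. The tests of members at an unadjusted p under 0.05 numbered 26, 27 with the replicate block, 12 without mock replicate 2 and 39 without mock replicate 1. Counts by listed names say nothing of what the siRNAs did under any setting, because the siRNA targets went against the list. Centring moved the median of all genes by up to 0.11 (log2). The median s.d. of the members (0.36) was 0.35 to 0.36 in all alternatives. Their median r (0.28) was 0.25 to 0.29 without each library, 0.23 by Spearman and 0.20 without libraries 21, 45 and 51. That last setting was chosen after seeing the data. The gap between the highest and lowest library (0.82) was 0.81 to 0.88, and libraries 9, 17 and 37 stayed the lowest 3 and 51, 21 and 43 the highest 3 under 3 alternatives. The same library was lowest under all 3 scalings for 23 of 31 members and highest for 22. Depth limits CYP51A1, TM7SF2 and HSD17B7 most.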

Other observations

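The sets of 3 libraries, built without members and siRNA targets, can be read against the targets library by library. JAK2 held -2.05, -1.39 and -0.79 in libraries 37, 9 and 17, where FDFT1, FDPS, LSS and SC5D were lowest, and the next library held 2.60. SAP130 held 1.03, 1.22 and 1.26 in libraries 21, 51 and 45, where MVK, MVD, FDFT1, SQLE, LSS, SC5D, DHCR7 and LPIN1 were highest, and the next held 5.47. POLR2D held 2.92, 3.20 and 3.50 in libraries 16, 44 and 19, where SREBF1, ACLY and ACSS2 were lowest and TM7SF2 highest, and the next held 5.85. GLI1 held -4.68, -4.34 and -3.88, each being a count of 0, in libraries 14, 3 and 27, where CYP51A1, HSD17B7 and SREBF2 were lowest. CDK10 held 0.37, 1.25 and 1.38 in libraries 25, 18 and 24, where MSMO1 was lowest. CCNK held 1.14, 1.75 and 1.76 in libraries 29, 39 and 49, where SCD was lowest. PSMD13 held 2.47, 3.05 and 3.32 in libraries 30, 15 and 2, where FADS2 was lowest. For 10 of the 11 measured targets the 3 lowest libraries formed 1 set. Libraries 6, 7 and 8 were lowest in EIF3L, 11, 22 and 26 in NFYA, and 31, 32 and 48 in TOX4. None of these sets made up the 3 highest or the 3 lowest libraries of any member. Over all genes tested the 3 highest libraries formed 1 set for 32.9% and the 3 lowest for 34.7%. The counts of 12 and 14 of the 31 members are near that background. No condition was taken from the values of the targets, and no comparison between sets was tested. Libraries 10, 41 and 43, where ACAT2, HMGCS1 and FDPS were highest, and libraries 12, 33 and 42, where ELOVL6 was lowest, were the 3 lowest libraries of none of the 11 targets.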
